A study of Mus musculus with 2 samples.

Results

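Cytochrome P450 genes were followed in single cells of mouse small intestine, in 1 library labelled control and 1 labelled model. Members were all genes whose symbol is Cyp followed by a number, a letter and a number, without pseudogenes and without Cyp1a1 and Cyp1b1, which gave 92 of the 56980 genes in the deposited tables. The series title ties the work to a compound named CB001, simulated microgravity and radiation; the labels give neither the treatment behind the word model nor the strain, age, sex or number of animals, nor the region of the gut. The tissue was freed of mesentery and Peyer's patches and digested with EDTA and then collagenase before droplet capture. With 1 library per group there was no test, and every difference below is between 2 libraries, with intervals that cover counting error only.

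P450 enzymes are haem proteins, mostly of the endoplasmic reticulum and in part of mitochondria, that add oxygen to fat-soluble molecules. They take their electrons from P450 oxidoreductase and cytochrome b5, or in mitochondria from ferredoxin. Members of families 2 and 3 act on drugs, food compounds and arachidonic acid, those of family 4 hydroxylate fatty acids, leukotrienes and vitamins, and smaller families make or break down bile acids, vitamin D, retinoic acid and steroids. In the gut the absorptive enterocyte is known as their main site, with high levels along the villus.

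The control library held 10259 barcodes and 61370270 unique molecular identifiers (UMIs, tags that each mark 1 captured RNA molecule), and the model library 11468 barcodes and 76701215 UMIs. After filtering, 7329 control and 7913 model cells remained, with median mitochondrial shares of 10.8% and 5.38%. The libraries shared 28 barcodes, 12 of them among the kept cells. Cells fell into 29 clusters, made without the member genes, and clusters were named from marker genes. P450 genes outside the members, such as Cyp1a1, were not kept out of the clustering. Cluster 2 stayed unnamed, had a median of 828.5 UMIs in the control library, and held 1204 control against 28 model cells. Its summed P450 level was 1829 CPM in control and 1060 CPM in model cells, and that of the unnamed cluster 5, with 291 and 745 cells, was 853 and 943 CPM. The ending "-like" in a class name marks that it rests on transcripts alone. Levels are CPM, counts per mega-UMI (the gene's UMIs over all UMIs of the class), and are not scaled to gene length.

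Of the 92 members, 31 had no UMI in any kept cell, 17 had 1 to 9 UMIs, 17 had 10 to 99 and 27 had 100 or more. The 27 held 99.5% of the 152286 P450 UMIs, and 5 of them held 60.1%. These 5 were Cyp4f14 with 27159 UMIs, Cyp3a13 with 24598, Cyp3a11 with 17459, Cyp4v3 with 11870 and Cyp2d26 with 10445. By role, 17 family 4 members gave 33.9% of the UMIs, 7 family 3 members 32.7%, and 40 members of families 1 and 2 that act on foreign compounds 23.6%. A further 9 family 2 members of the Cyp2j and Cyp2u subfamilies, which act on arachidonic acid and other long fatty acids, gave 7.15%. The 6 sterol and bile acid members gave 1.54%, and the 6 steroid hormone members had 20 UMIs in all. A count of 0 among the kept cells allows up to 3 UMIs in a library.

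Many of the silent members are known as liver, kidney or gonad genes. Cyp7a1, the first enzyme of bile acid synthesis in liver, had no UMI, and Cyp8b1, a later enzyme of that pathway, had 1. Among the 40 foreign compound members 18 were at 0, including 4 of the Cyp2b genes, while Cyp2b10 of the same subfamily had 8869 UMIs. Cyp19a1, the aromatase that makes oestrogens, was also at 0. Near-identical neighbours within the Cyp2c, Cyp2d, Cyp2j, Cyp3a and Cyp4f clusters can share reads, so the split of UMIs between close copies is uncertain.

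Enterocyte-like cells carried most of the P450 transcripts. Summed over all members the level was 4471 CPM (95% interval 4432 to 4511) in 1812 control enterocyte-like cells and 4408 CPM (4372 to 4444) in 1266 model cells, a ratio of 0.986. These cells held 71.9% of the control and 68.5% of the model library's P450 UMIs, and all epithelial cells together held 91.6%. A P450 UMI was seen in 99.2% of control and 99.4% of model enterocyte-like cells. The median cell had 17 P450 UMIs from 7 members in the control library, at a median depth of 4310.5 UMIs. In the model library it had 34 from 11 members, at 6994.5 UMIs.

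Other epithelial classes lay well below. Cluster 6, an unnamed epithelial cluster led by Gsdmc4, Gsdmc2 and Car4, had 713 CPM in control and 894 CPM in model cells, enteroendocrine-like cells 749 and 859 CPM, and goblet-like cells 516 and 979 CPM. Crypt stem or transit-amplifying-like cells had 289.8 and 312 CPM. T cell-like cells, which are not known to use the intestinal members, had 330.3 and 316 CPM, and served as a measure of free RNA. For 15 members that were highest in enterocyte-like cells, the T cell-like level was 4.37% to 20.8% of the enterocyte level in the control library (median 5.98%) and 3.61% to 18.6% in the model library (median 6.50%). The summed crypt level was at the level in T cell-like cells as CPM, or slightly below. Per cell the classes differed: the median crypt cell had 4 P450 UMIs at 17042 UMIs in control and 16488 in model, and the median T cell-like cell had 0 at 3056 and 2705 UMIs.

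**Figure D1:**
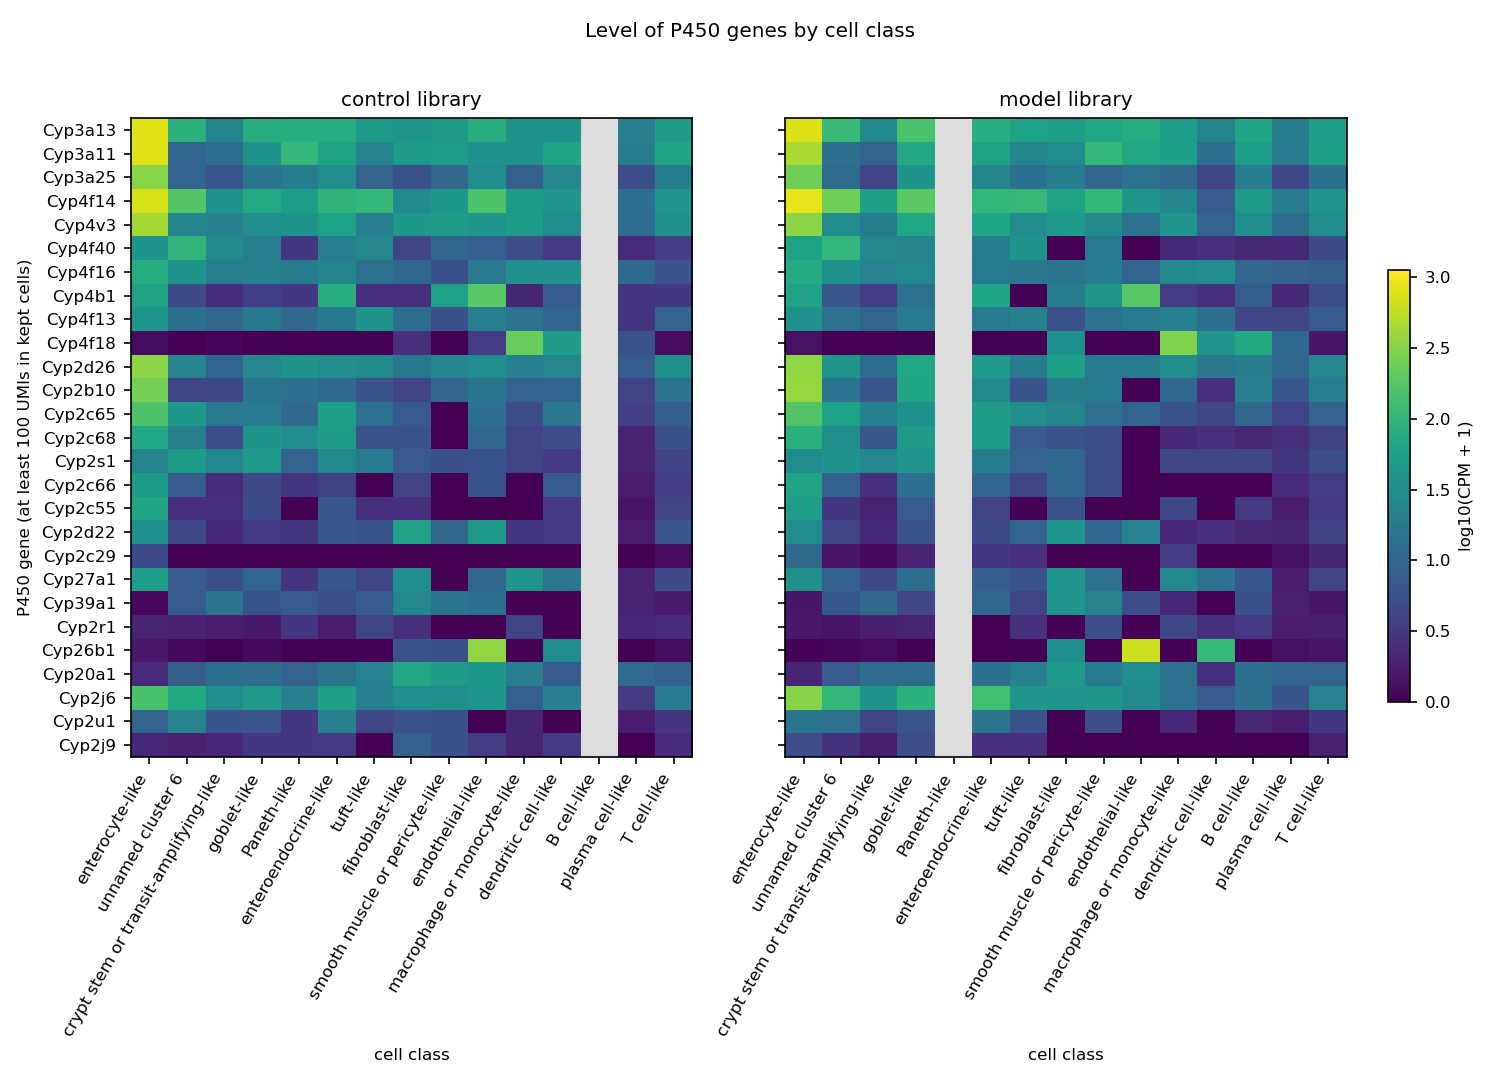
Level of the 27 P450 genes with at least 100 UMIs (rows, by role) in selected cell classes (columns) as log10(CPM + 1). The control library is on the left and the model library on the right. Among the classes not drawn are NK or innate lymphoid-like cells and the unnamed clusters 2 and 5. Grey columns are classes with fewer than 20 cells in that library; most rows are brightest in enterocyte-like cells, while Cyp4f18 and Cyp26b1 are brightest in macrophage- or monocyte-like and endothelial-like cells.

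Family 3 enzymes oxidise drugs, steroids and bile acids. Cyp3a13 had 796 CPM in control and 783 CPM in model enterocyte-like cells, a ratio of 0.983 (95% interval 0.956 to 1.01). Cyp3a11, the best known inducible drug-metabolising member and a target of the pregnane X receptor, had 790.2 CPM in control and 454 CPM in model cells, a ratio of 0.575 (0.556 to 0.594). Cyp3a25 had 321 and 236 CPM, a ratio of 0.736, which lies short of the 1.5-fold limit. Cyp3a44, with 25 control and 9 model UMIs, had a ratio of 0.302 (0.124 to 0.669). Cyp3a13 thus lay close to 1, and Cyp3a11 and Cyp3a44 were called lower.

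Family 4 enzymes hydroxylate the ends of fatty acid chains. Cyp4f14, which acts on leukotriene B and on vitamins E and K, had 730.2 CPM in control and 859 CPM in model enterocyte-like cells, a ratio of 1.18 (1.14 to 1.21). Cyp4v3, a fatty acid hydroxylase, had 432 and 333 CPM, a ratio of 0.772. Cyp4f16 had 76.1 and 74.8 CPM, Cyp4f13 38.4 and 34.1 CPM, and Cyp4b1 54.6 and 55.7 CPM, so these 3 had ratios close to 1. Cyp4a10, a target of the fatty acid receptor PPAR alpha, had 10 control and 32 model UMIs, a ratio of 2.68 (1.29 to 6.12). Cyp4f40 had 37.0 and 57.5 CPM, a ratio of 1.55 (1.37 to 1.76).

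The Cyp2j subfamily, whose enzymes make epoxides from arachidonic acid, was higher in model enterocyte-like cells, with a summed ratio of 2.11. Its summed ratio was 2.08 in goblet-like cells, 1.49 in cluster 6 and 1.22 in the crypt class. Cyp2j6, its main intestinal member, had 147 CPM in control and 309 CPM in model enterocyte-like cells, a ratio of 2.10 (1.98 to 2.23). After each cell was thinned to 1000 UMIs, a Cyp2j6 UMI was seen in 12.0% (10.5% to 13.6%) of control and 26.4% (24.0% to 29.0%) of model enterocyte-like cells, and in 1.43% and 1.38% of T cell-like cells. This used the 1757 and 1237 enterocyte-like and 1256 and 2325 T cell-like cells that were deep enough, and left out 55 control and 29 model enterocyte-like cells. Without thinning the shares were 40.3% and 76.2%. Cyp2j9 had 14 and 56 UMIs in enterocyte-like cells, a ratio of 3.36 (1.84 to 6.53), and Cyp2u1, which hydroxylates long fatty acids, 89 and 186 UMIs, a ratio of 1.75 (1.35 to 2.28).

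Of 10 measured members that act on foreign compounds, 8 had a ratio above 1 and 2 below, with a median of 1.30. Cyp2d26 had 330.3 CPM in control and 345 CPM in model enterocyte-like cells, Cyp2c65 158 and 166 CPM, and Cyp2s1 22.7 and 29.5 CPM. Cyp2b10, a target of the constitutive androstane receptor, had 257 and 372 CPM, a ratio of 1.45 (1.38 to 1.52). Cyp2c68 and Cyp2c66 had ratios of 1.30 and 1.32, and Cyp2c55, which hydroxylates arachidonic acid, and Cyp2d22 had 0.781 and 0.841. Only the scarce Cyp2c29, with 42 and 122 UMIs and a ratio of 2.44 (1.70 to 3.55), and Cyp2c23, with 20 and 53 UMIs and a ratio of 2.22 (1.31 to 3.93), passed the call in this group. Cyp27a1, a mitochondrial sterol hydroxylase of bile acid synthesis, had 48.7 and 35.5 CPM, a ratio of 0.729 (0.642 to 0.827).

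A gene was measured in a comparison from 20 UMIs in both libraries together, and was called at a ratio of 1.5 or its inverse with an interval that excludes 1. In enterocyte-like cells 26 members were measured, of which 7 were called higher and 2 lower. Over the 11970 genes measured there, 15.6% were called higher and 9.27% lower. The median log2 ratio was 0.06 over the members and 0.10 over all measured genes. With 7 of 26 the share called higher was 26.9%, and with 2 of 26 the share called lower was 7.69%.

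**Figure D2:**
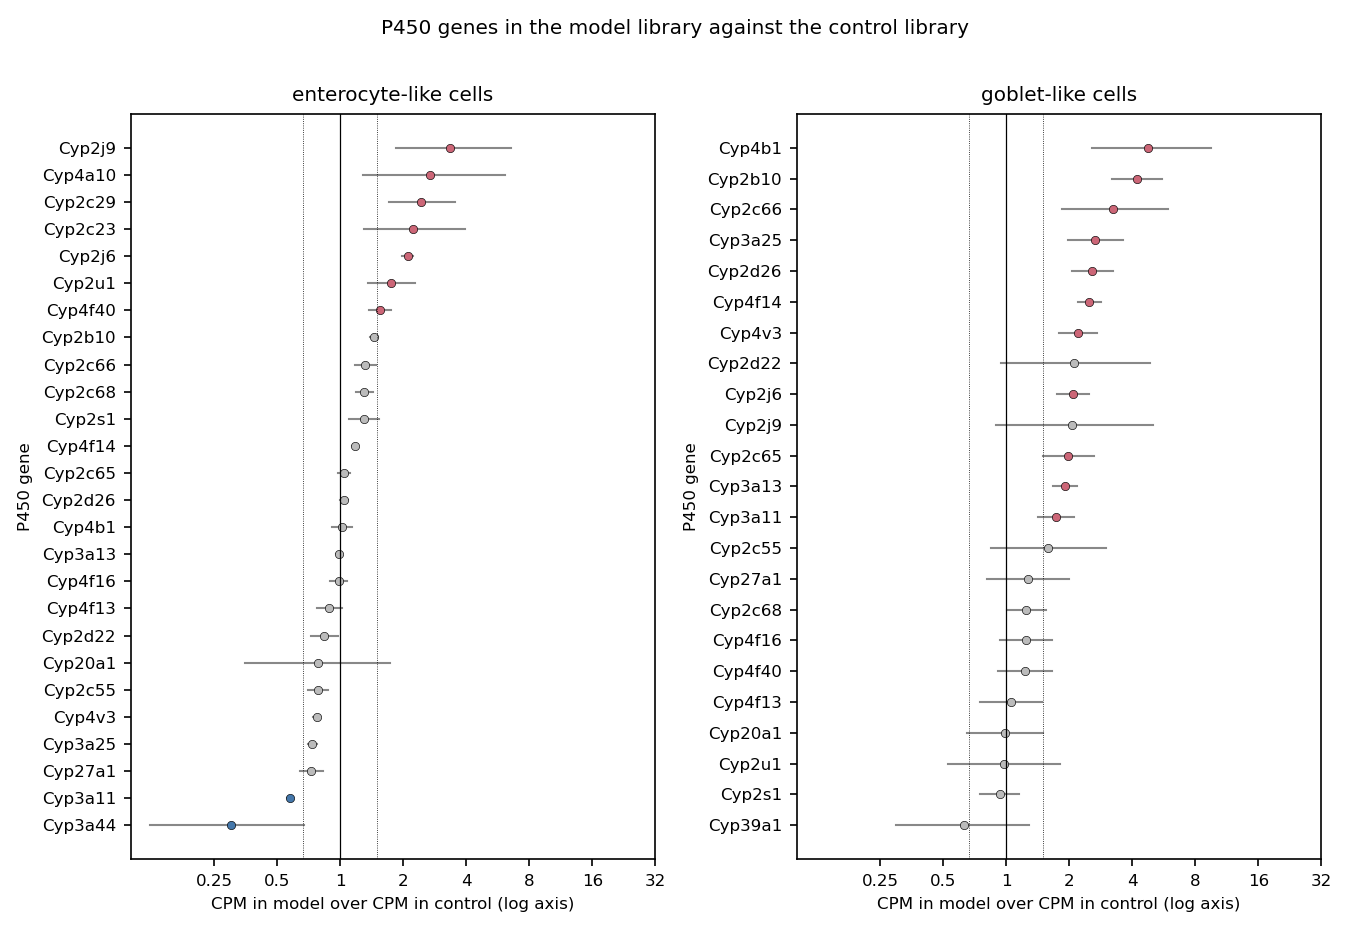
Ratio of CPM in the model library to CPM in the control library (log axis) for each measured P450 gene in enterocyte-like cells (left, 26 genes) and goblet-like cells (right, 23 genes). Points are ratios, bars 95% counting intervals and dotted lines the 1.5-fold limits; red is called higher and blue lower, with Cyp3a11 at 0.575 on the left and 1.73 on the right.

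The enterocyte-like class was made of 3 clusters that differed in share between the libraries. Leading genes of cluster 1 included Gsta1, Fabp1, Papss2 and Cyp1a1, a P450 gene outside the members. Cluster 1 was 14.8% of control and 62.7% of model enterocyte-like cells. Cluster 13, led by Cubn, Plb1 and Tmigd1, was 57.7% and 26.5%, and cluster 14, led by Clca4a and with Ada and Nt5e among its leading genes, was 27.5% and 10.8%. P450 genes had different levels in these clusters within the control library. Cyp3a11 was lower in cluster 1 (414 CPM) than in clusters 13 (965 CPM) and 14 (1017 CPM). Cyp2b10 ran the other way, with 373, 246 and 78.0 CPM, as did Cyp2c66 with 83.1, 34.4 and 4.85 CPM and Cyp2c55 with 96.9, 60.8 and 11.6 CPM. Cyp3a25 had 393, 344 and 134 CPM, and Cyp4v3 was highest in cluster 13, with 301, 544 and 382 CPM.

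Within the clusters Cyp3a11 no longer passed the call. Its ratio was 0.711 (0.669 to 0.757) in cluster 1, 1.18 (1.12 to 1.24) in cluster 13 and 0.977 (0.893 to 1.07) in cluster 14. Cyp2j6 was higher in each: 181 against 316 CPM in cluster 1, 154 against 325 CPM in cluster 13 and 68.3 against 147 CPM in cluster 14, with ratios of 1.75 (1.61 to 1.90), 2.11 (1.90 to 2.34) and 2.15 (1.64 to 2.81). It was the 1 member called higher in all 3 clusters, and 0 were called lower in all 3. Cyp4f40, called higher in the whole class, had ratios of 0.985 in cluster 1 and 0.471 in cluster 13. Cyp4a10, also called in the whole class, had 10 and 31 UMIs in cluster 1, a ratio of 1.09 (0.519 to 2.48) without a call. Cyp2j9 (1.98, 0.968 to 4.59) and Cyp2c23 (1.61, 0.802 to 3.58) were not called in cluster 1 either. Cyp4a10, Cyp2j9 and Cyp2c23 had too few UMIs to be measured in clusters 13 and 14. Cyp2c29 had 18 and 68 UMIs in cluster 1, a ratio of 1.32 (0.778 to 2.36) without a call. Cyp3a44, called lower in the whole class, had too few UMIs to be measured in any of the 3 clusters.

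Some members differed inside a cluster without a call in the whole class. In cluster 1, 25 members were measured and 3 were called higher (2.55% of all genes there) and 2 lower (3.18% of all genes). The 2 lower were Cyp2c55, with 96.9 and 47.1 CPM and a ratio of 0.486 (0.423 to 0.559), and Cyp3a25, with 393 and 221 CPM and a ratio of 0.563 (0.527 to 0.602). In cluster 13, 4 of 21 were called higher, against 6.41% of all genes, and 1 lower, against 5.11%. The 4 were Cyp2j6, Cyp2b10 with a ratio of 1.67, Cyp2c66 with 1.59 and Cyp2c29 with 5.86 (3.55 to 9.94). In cluster 14, 1 of 17 was called higher, against 6.70% of all genes, and 2 lower, against 8.49%, which were Cyp4b1 and Cyp4f14, the latter with 458 and 294 CPM. Cyp4b1, with 124 and 560 UMIs in cluster 1 (1.58, 1.30 to 1.94) and 145 and 17 UMIs in cluster 14 (0.370, 0.210 to 0.614), went opposite ways in the 2 clusters.

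**Figure D3:**
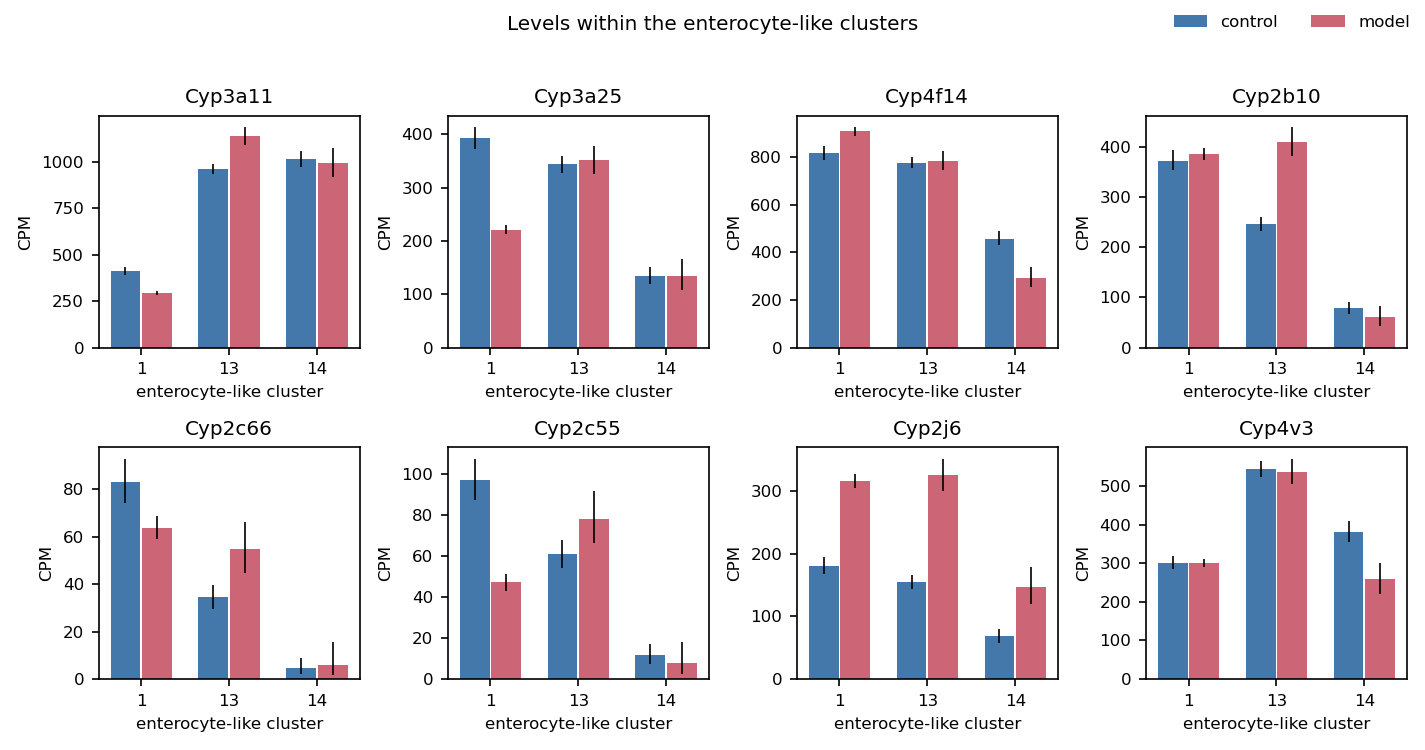
Level (CPM) of 8 P450 genes in enterocyte-like clusters 1, 13 and 14 in the control (blue) and model (red) libraries; bars are summed UMIs over the cluster's total and lines 95% Poisson intervals. Cyp2j6 is higher in the model library in each cluster, with ratios of 1.75, 2.11 and 2.15, whereas Cyp3a11 differs more between clusters (414 to 1017 CPM in control) than between libraries within one.

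Gene lists for position along the gut and the villus moved with these differences. Over all genes measured in enterocyte-like cells, 15.6% were called higher and 9.27% lower. In enterocyte-like cells 5 of 7 measured lower villus genes were called higher and 1 lower, and 6 of 10 villus tip genes were called lower and 0 higher. Of the proximal intestine genes 4 of 11 were called higher, up to Pdx1 with a ratio of 7.55, and of the distal genes 7 of 11 were called lower, down to Plb1 with 1417 control UMIs and 1 model UMI. The median log2 ratio was 0.93 for the lower villus list, -0.82 for the villus tip list, 0.54 for the proximal and -1.08 for the distal list. The part of villus height and gut region in the P450 ratios was not tested.

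Partners of the P450 enzymes were read from lists as well, beside the 15.6% of all measured genes called higher in enterocyte-like cells. The counts for the microsomal electron donors and the nuclear receptors lay below that share. Of 8 measured microsomal electron donors, 1 was called higher in enterocyte-like cells, Cyb5a (cytochrome b5) with 486 and 885 CPM and a ratio of 1.82. Por, the oxidoreductase that serves all microsomal members, had 186 and 205 CPM, a ratio of 1.10, and Cyb5r1, with 24 UMIs in each library, had the lowest ratio at 0.839. Of 2 measured mitochondrial donors, Fdx1 (ferredoxin) had a ratio of 2.20 and Fdxr 0.992. Of 10 haem genes 4 were called higher, led by Cpox with 1.99, and the lowest was Hmox1, the haem-degrading oxygenase, with 16 and 14 UMIs and a ratio of 0.734. Of 16 nuclear receptor genes 2 were called higher, the bile acid-induced repressor Nr0b2 with 9 and 77 UMIs and a ratio of 7.18, and Ppara with 1.53. The receptors best known for inducing P450 genes were close to 1: Nr1i2, the pregnane X receptor, had 61.6 and 55.8 CPM, and Nr1i3, the constitutive androstane receptor, 72.5 and 77.4 CPM. Rara, a retinoic acid receptor, was the lowest with 0.692. The 1 measured P450 gene under another symbol, the sterol demethylase Cyp51, had a ratio of 0.751.

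Promoters are shown for members on which these differences turn, to show what lies just ahead of genes that were higher, lower or restricted to few cells. The subfamilies with the highest and the lowest ratio in enterocyte-like cells were Cyp4a and Cyp27a, for which the members with most UMIs are Cyp4a10 and Cyp27a1, and the Cyp27a1 sequence is given. Cyp3a11, Cyp2j6 and Cyp2j5 were added after their values were seen. The 250 bases before each gene's start were taken from RefSeq on GRCm38.p6, which is not the build named by the submitters, and 70 of the 92 members had an entry. Capitals mark matches on either strand to CAAAGTCCA (a site of the nuclear receptor HNF4), AGGTCA (a nuclear receptor half-site) or TATAAA (the letters of a TATA box), none of which overlap here.
Cyp3a11, chr5:145879855-145880104, minus strand: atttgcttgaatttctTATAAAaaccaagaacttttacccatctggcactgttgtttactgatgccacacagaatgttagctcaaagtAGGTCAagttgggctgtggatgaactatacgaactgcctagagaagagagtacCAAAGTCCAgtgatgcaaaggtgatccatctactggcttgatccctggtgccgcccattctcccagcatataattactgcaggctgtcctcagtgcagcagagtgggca
Cyp2j6, chr4:96553652-96553901, minus strand: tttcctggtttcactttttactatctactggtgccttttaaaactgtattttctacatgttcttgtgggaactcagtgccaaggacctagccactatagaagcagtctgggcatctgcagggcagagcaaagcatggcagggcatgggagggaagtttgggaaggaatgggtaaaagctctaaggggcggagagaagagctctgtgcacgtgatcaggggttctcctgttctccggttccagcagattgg
Cyp2j5, chr4:96664120-96664369, minus strand: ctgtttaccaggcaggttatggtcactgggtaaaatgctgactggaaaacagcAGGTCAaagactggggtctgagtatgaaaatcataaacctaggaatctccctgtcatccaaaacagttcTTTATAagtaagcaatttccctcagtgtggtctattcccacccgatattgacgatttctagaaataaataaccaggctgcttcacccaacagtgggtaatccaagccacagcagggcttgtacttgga
Cyp27a1, chr1:74713285-74713534, plus strand: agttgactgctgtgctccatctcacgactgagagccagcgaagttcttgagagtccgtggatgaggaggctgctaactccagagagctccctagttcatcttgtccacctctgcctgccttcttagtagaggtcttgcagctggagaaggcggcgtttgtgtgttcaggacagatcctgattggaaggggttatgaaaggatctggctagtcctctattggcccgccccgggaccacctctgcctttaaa

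The Cyp3a11 window held 1 match to each of the 3 motifs. The Cyp2j5 window held 1 match to AGGTCA and, on the opposite strand, 1 to TATAAA. The windows of Cyp2j6 and Cyp27a1 held none of these letters. Matches were counted at any position, and whether they are working sites was not tested. CAAAGTCCA was found in 126 of 32851 windows of all genes (0.384%) and in 9 of the 80 windows of the 70 members (11.2%). These windows belong mainly to Cyp2c genes, close relatives whose sequences are not separate observations. AGGTCA was found in 4607 windows of all genes (14.02%) and 19 of the members' windows (23.8%), and TATAAA in 4063 (12.4%) and 27 (33.8%).

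Goblet-like cells, the mucus-secreting class, had higher P450 levels in the model library. The summed level was 516 CPM in 348 control and 979 CPM in 333 model cells, a ratio of 1.90 (1.80 to 2.00). Of 23 members measured, 11 were called higher and 0 lower, against 4.77% of the 11163 measured genes called higher and 6.21% lower. Cyp2b10 had 69 and 238 UMIs, or 14.4 and 60.3 CPM, a ratio of 4.19 (3.20 to 5.57). Cyp4f14 had 73.1 and 183 CPM, a ratio of 2.50 (2.20 to 2.85), and Cyp3a13 79.2 and 151 CPM, a ratio of 1.90. The other 8 were Cyp4b1 with a ratio of 4.77, Cyp2c66 with 3.24, Cyp3a25 with 2.65, Cyp2d26 with 2.59, Cyp4v3 with 2.21, Cyp2j6 with 2.08, Cyp2c65 with 1.98 and Cyp3a11 with 1.73. All 11 had a higher level in enterocyte-like than in goblet-like cells in both libraries. Cyp2s1 had 42.3 and 39.5 CPM in goblet-like cells, a ratio of 0.934, and 45.1 and 35.3 CPM in cluster 6.

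The difference sat in a minority of goblet-like cells. The median cell had 3 P450 UMIs in both libraries, at 7329 UMIs in control and 9268 in model, and the median of the per-cell level was 379 and 388 CPM. Cells with more than 20 P450 UMIs were 24 of 348 (6.90%, exact interval 4.47% to 10.1%) in control and 44 of 333 (13.2%, 9.77% to 17.3%) in model, and held 52.4% and 72.9% of the class's P450 UMIs. Their median depth was 50999.5 UMIs in control and 22345.5 in model. Enterocyte markers moved with the result: all 15 of the 15 on the list were called higher in model goblet-like cells, their summed level was 5307 and 12976 CPM, none was at 0, and their median share per cell was 0.254% and 0.221%. Without the 10% of goblet-like cells richest in those markers, 6 of 20 measured members were called higher, against 2.57% of all genes. With every cell thinned to 1000 UMIs, 0 of 8 were called higher, against 4.49% of all genes, and Cyp3a11 and Cyp4v3 lay below 1. Mixed droplets were not separated, since the doublet caller marked no cell in either library.

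**Figure D4:**
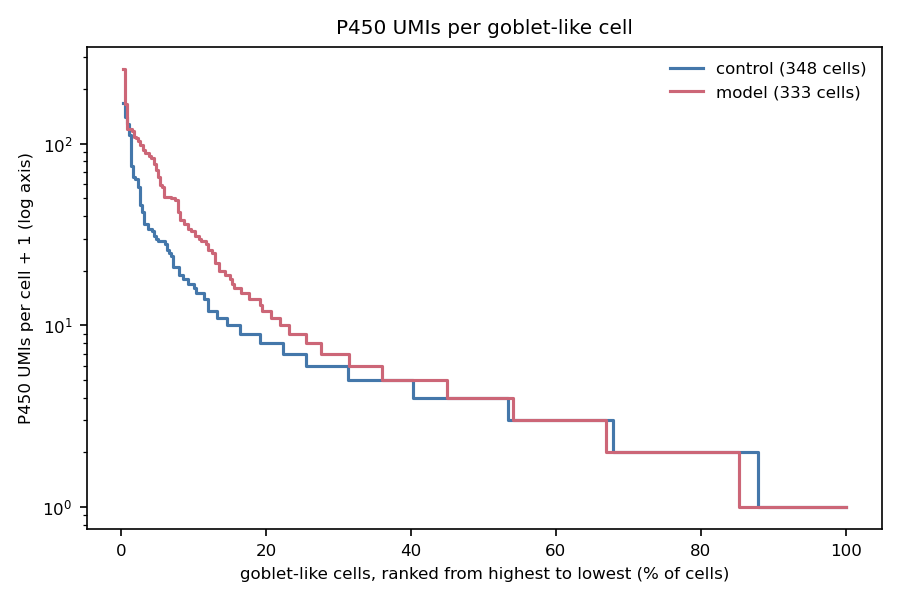
P450 UMIs per goblet-like cell plus 1 (log axis) against the cell's rank as a percent of its library's goblet-like cells, for 348 control (blue) and 333 model (red) cells. The curves meet at the median of 3 UMIs and part among the highest cells, where 13.2% of model and 6.90% of control cells have more than 20.

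Crypt stem or transit-amplifying-like cells differed little. Of 29 members measured 2 were called higher, against 1.81% of all measured genes, and 1 lower, against 3.99%. The 2 were Cyp4b1, with 23 and 49 UMIs (1.70), and Cyp24a1, which breaks down active vitamin D, with 3 and 21 UMIs (5.60, 1.67 to 29.3). The Cyp24a1 UMIs came from 3 control and 9 model cells, and 6 of the 21 remained without the 3 highest cells. Cyp3a25 was lower, with 80 and 60 UMIs (0.600).

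Some members had their largest share of UMIs in the crypt class. Cyp39a1, an oxysterol hydroxylase, had 210 and 193 UMIs there, or 13.9 and 10.2 CPM, against 0.649 and 0.530 CPM in T cell-like cells. Its level was higher in fibroblast-like cells, at 25.5 and 37.6 CPM. Cyp2e1, known for the oxidation of ethanol, had 33 and 37 of its 81 UMIs there, in 24 and 29 cells, Cyp4f15 9 and 23 of 42, Cyp2c70 7 and 15 of 41, and Cyp27b1, which activates vitamin D, 10 of 17. Of these members only Cyp4f15 also had its highest level, as CPM over both libraries, in the crypt class. For Cyp2e1 the highest class was Paneth-like cells (84 control and 8 model cells), at 2.84 CPM. Its crypt level was 2.19 CPM in control and 1.96 CPM in model cells. For Cyp27b1 the highest class was the unnamed cluster 2, at 1.61 CPM. Few UMIs stood behind these 2 highest levels. Neither Cyp39a1, with a ratio of 0.735 (0.601 to 0.898), nor Cyp2e1, with 0.896 (0.545 to 1.48), reached the 1.5-fold limit.

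Cluster 6 was the class with the highest level of Cyp4f40, at 98.3 CPM in control and 103 CPM in model cells, although the members took no part in the clustering. A Cyp4f40 UMI was seen in 162 of 238 control and 293 of 418 model cells. In this cluster 3 of 23 members were called higher, against 2.22% of all genes, and 1 lower, against 3.89%. Cyp2b10 had 19 and 131 UMIs (3.92, 2.42 to 6.73), Cyp2d26 22.2 and 38.4 CPM (1.73) and Cyp2c68 19.1 and 31.0 CPM (1.62). Cyp2u1 was lower with 120 and 128 UMIs (0.607, 0.470 to 0.785), the opposite of its direction in enterocyte-like cells.

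Enteroendocrine-like cells, the hormone-secreting class, were 84 control and 161 model cells, and their comparison was added after the data were seen. Of 21 members measured 4 were called higher, against 3.28% of all genes, and 0 lower, against 4.31%. Cyp2j6 had 74 and 249 UMIs, or 53.8 and 132 CPM (2.46, 1.89 to 3.23), and Cyp2b10 14 and 49 UMIs (2.55). Cyp4b1, a fatty acid hydroxylase, was well seen here without a call, at 81.4 and 60.5 CPM. Enterocyte markers in this class had 5482 and 6479 CPM, with 2 of 15 called higher.

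Cyp2j5, best known from kidney and liver, was found almost only in enteroendocrine-like cells. It had 72 of its 82 UMIs there, 7 in control and 65 in model cells, or 5.09 and 34.5 CPM (6.78, 3.11 to 17.5). The UMIs came from 2 control and 17 model cells, and 36 of the 65 remained without the 3 highest cells. T cell-like cells had 0 and 3 Cyp2j5 UMIs, and enterocyte-like cells 0 and 4. The 17 model cells with Cyp2j5 had 64120 CPM of Cck (cholecystokinin) against 9604 CPM in the other 144, and 23421 against 4632 CPM of Sct (secretin). They had 62.9 against 1084 CPM of Chga and 0 against 2487 CPM of Sst (somatostatin). The 2 control cells also held Cck and Sct, at 64578 and 48155 CPM. These cells were chosen by Cyp2j5, so the hormone levels are a description only.

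Outside the epithelium 2 members stood apart by class. Cyp4f18, a leukotriene hydroxylase of myeloid cells, had 207 and 235 UMIs in macrophage- or monocyte-like cells, or 219 and 284 CPM (1.30, 1.07 to 1.57), and 0.216 and 0.530 CPM in T cell-like cells. It was seen in 110 of 219 control and 106 of 205 model cells of that class, in 13 and 16 dendritic cell-like cells, and in 45 of 277 model B cell-like cells, a class with 4 cells in the control library. Cyp26b1, which clears retinoic acid, had 144 and 149 UMIs in endothelial-like cells, or 349 and 634 CPM (1.82, 1.44 to 2.30), in 39 of 68 and 41 of 75 cells. The summed P450 level of endothelial-like cells was 1157 and 1195 CPM, over class totals of 413153 control and 235140 model UMIs. Dendritic cell-like cells had 13 and 66 Cyp26b1 UMIs, in 4 and 14 cells, and 1 and 30 remained without the 3 highest cells.

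Stromal cells held further members at low counts. Cyp7b1, an oxysterol hydroxylase named here after its values were seen, had 0 UMIs in epithelial cells, and 18 and 23 in smooth muscle or pericyte-like cells, 11 and 9 in fibroblast-like and 6 and 10 in endothelial-like cells. Cyp4b1 reached 182 and 179 CPM in endothelial-like cells from 75 and 42 UMIs. Cyp2d22 had 54.1 and 37.6 CPM in fibroblast-like cells from 34 and 8 UMIs, and Cyp20a1, an orphan member, 66.8 and 42.3 CPM from 42 and 9. In macrophage- or monocyte-like cells Cyp27a1 had 38.1 and 26.6 CPM.

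Immune classes gave few calls. In T cell-like cells 0 of 22 members were called higher, against 1.88% of all genes, and 2 lower, Cyp2d22 and Cyp3a25, against 3.45%. In macrophage- or monocyte-like cells 0 of 10 were called higher, against 6.57%, and 1 lower, Cyp4f14 with 42 and 20 UMIs, against 4.28%. In plasma cell-like cells 2 of 13 were called higher, Cyp4f18 with 20 and 55 UMIs and Cyp2j6 with 10 and 29, against 3.65%, and 0 lower, against 3.10%. The part of free RNA in these calls was not tested.

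Over the whole epithelium 8 of 36 measured members were called higher, against 2.56% of 16696 genes, and 2 lower, against 7.49%. Besides Cyp2j5, Cyp2j6 (1.86) and Cyp2j9 (1.73), the higher ones were Cyp4a10 (2.58), Cyp2c23 (2.49), Cyp2c29 (2.66), Cyp24a1 (2.12) and Cyp2c38. Cyp2c38 had 1 control and 19 model UMIs, a ratio of 15.3 with an interval of 2.43 to 635. The lower ones were Cyp3a11, with 9221 and 6586 UMIs (0.574), and Cyp3a44 (0.268). With a mitochondrial limit of 10% the epithelial Cyp3a11 ratio turned to 1.18 (1.10 to 1.26). Of the other scarce members Cyp2c67 had 14 of its 20 UMIs in enterocyte-like cells. Highest levels, as CPM over both libraries, lay in an epithelial class for 18 of the 27 members with at least 100 UMIs. For 9 they lay in another class, among them Cyp4f16, Cyp2j9 and Cyp2r1, the vitamin D hydroxylase, which had 103 UMIs spread over many classes. With cells thinned, 22 of the 27 had the same highest class. Cyp2j9 was highest in fibroblast-like cells, at 7.96 CPM in control and 0 CPM in model cells, yet 78.9% of its UMIs were epithelial. Cyp4f16 was highest in NK or innate lymphoid-like cells, at 106 and 69.9 CPM. Its enterocyte-like levels were 76.1 and 74.8 CPM, and 88.4% of its UMIs were epithelial.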

How the data were processed

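The authors' deposited matrices hold raw UMI counts for each gene in each barcode, as whole numbers. The file headers name Cell Ranger 7.0.1 as the counting tool, but version 4.0 and the build GRCm39 stand in the submitters' processing notes; not given in the sources used here are the annotation, the chemistry and the handling of introns. The P450 members and all gene lists were chosen with earlier results of these data known. Kept barcodes had 500 UMIs and 200 genes or more and a mitochondrial share of up to 25%. Cells were scaled to 10000 UMIs and clustered in scanpy 1.11.5 (anndata 0.12.19, scikit-learn 1.9.0, igraph 0.11.9), both libraries together. Clustering used 2000 variable genes without the P450 members, 30 components, 15 neighbours and Leiden resolution 1. A class name needed at least 3 markers at 2-fold and in 10% of the cluster's cells. Scrublet called 0 doublets in either library, so it did not work, and none were removed. UMIs were summed per class and library, with exact Poisson, Clopper-Pearson and binomial ratio 95% intervals that cover counting error only. A count of 0 was replaced by 3 UMIs in the ratio alone. Genes with at least 20 UMIs were called at 1.5-fold with an interval excluding 1, in classes of at least 100 cells per library. Ratios for enteroendocrine-like and endothelial-like cells are given although these classes fall below that limit. Members with 100 or more UMIs are named with values, scarcer ones where at least 10 UMIs and over 50% lie in 1 class, and genes of other lists by their highest and lowest ratio; a few further genes were named for their role or after their values were seen. The calling step was run on simulated Poisson counts, with changes larger than the call limit in well-counted genes and no spread between cells. Calls near the limit, changes in scarce genes and shifts in cluster make-up were not tested. No replicate exists, so no p-value is given. Alternatives covered filters, scaling, thinning, clustering, call limits and doublet scores.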

Additional observations from a re-analysis of the deposited data

Results flagged for a closer look

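Of the called members, 3 were called in opposite directions in 2 epithelial classes, and the differences between the classes were not tested. Cyp3a11 had a ratio of 0.575 in enterocyte-like and of 1.73 in goblet-like cells. The goblet value was 0.751 with cells thinned to 1000 UMIs and 0.941 without the highest Scrublet scores, and the enterocyte value was 0.711, 1.18 and 0.977 within clusters 1, 13 and 14, with no call in any of them. Cyp3a25 had a ratio of 0.600 in crypt and of 2.65 in goblet-like cells. Cyp2u1 had a ratio of 1.75 in enterocyte-like cells and of 0.607 in cluster 6. The barcodes removed by the cell filters also held P450 UMIs: 2520 CPM in 2930 control and 2750 CPM in 3555 model barcodes, a ratio of 1.09. The main comparisons did not use these barcodes, while the alternative with no mitochondrial limit took some of them back in.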

How the results depend on the processing

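No paired analysis was possible because each group holds 1 library. In enterocyte-like cells 7 members were called higher; this was 3 with a mitochondrial limit of 10%, 4 with cells thinned to 1000 UMIs, and 3, 4 and 1 within clusters 1, 13 and 14. Calls within clusters were partly of other members: Cyp4b1 in cluster 1 and Cyp2b10 and Cyp2c66 in cluster 13 were not called in the whole class. The 2 called lower became 1 under that limit, with no limit, with thinning, from 50 UMIs and at 2-fold. Neither of the 2, Cyp3a11 and Cyp3a44, was called lower in cluster 1, 13 or 14. The 1 member called lower in cluster 13 was Cyp4f40, which was called higher in the whole class. In goblet-like cells 11 called higher became 0 (of 8 measured) with thinning and 6 without the 10% richest in enterocyte markers, an alternative chosen after seeing the data. In the whole epithelium 8 higher became 2 with thinning; 2 lower became 0 with the 10% limit, 1 with no limit, from 50 UMIs or at 2-fold, and 4 with each library clustered alone. In the crypt class 2 higher became 0 with the 10% limit; 1 with no limit, at least 1000 UMIs, Leiden resolution 2, leaving out the top 8% of Scrublet scores, from 50 UMIs or at 2-fold; and 4 with scaling to the median ratio, members allowed in the clustering or each library clustered alone. The 1 lower became 0 with no limit, at least 1000 UMIs, thinning, resolution 2 or 2-fold, 2 with the 10% limit, with members in the clustering or without the highest Scrublet scores, and 3 with scaling without mitochondrial genes or each library clustered alone. Ratios that crossed 1 were Cyp3a11 in the epithelium at the 10% limit (1.18) and in cluster 13 (1.18), Cyp4f40 in clusters 1 (0.985) and 13 (0.471), and, in goblet-like cells, Cyp3a11 with thinning (0.751) and without the highest Scrublet scores (0.941), Cyp4v3 with thinning (0.763) and Cyp2c65 without the richest cells (0.988). Cyp2j6 in enterocyte-like cells lay between 1.75 and 2.43 over every alternative run. The cause of these changes was not tested. Depth limits scarce members: 8 of 23 goblet members stayed measured after thinning. With 1 library per group nothing separates the model condition from the animal, gut region or preparation.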
